A study of Mus musculus with 19 samples.

Results

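Day 10 of P19CL6 differentiation was compared with day 1 of the same line. P19CL6 is an embryonal carcinoma line of the mouse, a clonal line of undifferentiated tumour cells that can be made to form beating heart muscle. The members are every gene in the authors' deposited table for this pair of days, which holds 2290 of the 4213 genes listed for any later day against day 1 (54.4%). The study took total RNA at days 1, 4, 7, 10 and 14, made 19 libraries by tag profiling and, per its design text, saw spontaneous beating at day 14. Day 10 has 4 libraries and day 1 has 3, all from P19CL6 cells with no other genotype stated, and the agent that starts differentiation is not given in the sources used here. Per the design text, day 1 already belongs to the differentiation series. A single tumour line in a dish is a model of early heart formation without the neighbouring tissues of an embryo, and the labels do not say whether the replicates were grown separately.

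In tag profiling, 1 short tag is read from each captured transcript and tags are counted per gene, so that transcript length does not enter the level. Levels are given as the authors' deposited TPM, tag counts scaled to a shared library size and averaged by them over the libraries of a day. The mean library held 5.72e+06 tags at day 10 and 5.81e+06 at day 1. No value of a single library is in the tables used here, so the spread between replicates cannot be given for any value, there is no test between replicates, and "rose" and "fell" are used of genes that the deposited table lists. Folds were computed from summed tags, 4 libraries at day 10 over 3 at day 1, and the bracketed 95% intervals are exact (Clopper-Pearson) and cover counting error only. For a gene with no tag at day 1 the fold was set against 3 tags in the whole day 1 group (0.172 TPM) and is written as "at least". The table holds no gene that changed less than 2-fold, and one absent from it has no value, which does not show that it stayed the same.

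Heart muscle is made from mesoderm in steps. Pluripotent cells first pass through a primitive streak state, then mesoderm takes on a position along the body axis under Hox genes and retinoic acid, and cardiac transcription factors such as Gata4, Hand1 and Isl1 switch on the genes of the sarcomere, the contractile unit. The same early mesoderm also gives rise to the cells lining vessels, to the first blood cells, which use embryonic globins, and to the mesenchyme that lays down matrix. Immediate early genes such as Fos and Egr1 are a different kind of gene: they respond to growth factors and stress within minutes, with no new protein needed. A further set, the targets of the factor Atf4, supplies amino acids and rises when amino acids run short or proteins misfold.

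The promoter windows of 7 genes from these groups are shown: an embryonic globin, which was among the largest rises, 3 immediate early genes, and 3 genes known as Atf4 targets, all of which fell. All 7 hold a match of the motif searched in them, and members without a match, such as Jun and Bcat1, are not shown. The genes shown are not in each case those with the largest change of their group. Each window runs from 250 bases before to 50 bases after the transcription start in RefSeq (GRCm38.p6), 5′ to 3′ on the strand of the gene. Capitals mark the letters of a searched motif, on either strand: GATAA, read by the GATA factors of blood, in Hba-x (chr11:32276350-32276649, plus strand); TGACG, the core read by Creb and its relatives, in Fosb (chr7:19309996-19310295, minus strand), Fos (chr12:85473640-85473939, plus strand) and Nr4a1 (chr15:101266596-101266895, plus strand); and TGATGNAA, the composite element of Atf4 and C/ebp factors, in Asns (chr6:7693160-7693459, minus strand), Trib3 (chr2:152344011-152344310, minus strand) and Chac1 (chr2:119350992-119351291, plus strand).
Hba-x: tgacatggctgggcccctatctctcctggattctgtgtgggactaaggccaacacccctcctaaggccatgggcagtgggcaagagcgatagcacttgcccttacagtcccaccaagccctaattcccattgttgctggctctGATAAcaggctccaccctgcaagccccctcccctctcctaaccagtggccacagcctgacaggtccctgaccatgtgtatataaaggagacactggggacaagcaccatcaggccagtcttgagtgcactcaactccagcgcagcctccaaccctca
Fosb: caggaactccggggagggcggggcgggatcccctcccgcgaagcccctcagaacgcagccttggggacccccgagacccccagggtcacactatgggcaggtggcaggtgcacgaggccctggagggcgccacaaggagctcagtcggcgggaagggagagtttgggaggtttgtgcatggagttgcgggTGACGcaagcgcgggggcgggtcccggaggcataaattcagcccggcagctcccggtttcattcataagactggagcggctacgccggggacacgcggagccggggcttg
Fos: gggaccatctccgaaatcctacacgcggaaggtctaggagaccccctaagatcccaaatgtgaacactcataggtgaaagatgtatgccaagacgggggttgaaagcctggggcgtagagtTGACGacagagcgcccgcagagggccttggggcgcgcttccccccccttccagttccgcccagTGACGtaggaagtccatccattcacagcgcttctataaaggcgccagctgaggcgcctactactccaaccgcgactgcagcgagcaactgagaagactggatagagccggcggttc
Nr4a1: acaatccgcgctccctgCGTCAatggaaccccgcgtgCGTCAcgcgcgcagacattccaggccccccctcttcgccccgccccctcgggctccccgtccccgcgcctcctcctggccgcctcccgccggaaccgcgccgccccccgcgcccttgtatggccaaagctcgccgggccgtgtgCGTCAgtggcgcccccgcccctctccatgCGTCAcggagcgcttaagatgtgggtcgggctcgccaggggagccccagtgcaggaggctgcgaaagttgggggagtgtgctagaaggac
Asns: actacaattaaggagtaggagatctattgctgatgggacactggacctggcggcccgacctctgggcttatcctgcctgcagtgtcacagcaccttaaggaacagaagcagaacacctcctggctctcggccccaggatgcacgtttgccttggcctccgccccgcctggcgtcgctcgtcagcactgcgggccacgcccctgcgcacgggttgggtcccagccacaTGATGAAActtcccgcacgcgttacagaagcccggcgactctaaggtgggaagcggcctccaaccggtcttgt
Trib3: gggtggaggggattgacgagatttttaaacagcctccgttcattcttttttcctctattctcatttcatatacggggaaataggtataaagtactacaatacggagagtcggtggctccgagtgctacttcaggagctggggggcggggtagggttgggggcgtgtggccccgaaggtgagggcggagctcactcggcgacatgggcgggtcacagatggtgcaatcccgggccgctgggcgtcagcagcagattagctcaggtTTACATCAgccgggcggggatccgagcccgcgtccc
Chac1: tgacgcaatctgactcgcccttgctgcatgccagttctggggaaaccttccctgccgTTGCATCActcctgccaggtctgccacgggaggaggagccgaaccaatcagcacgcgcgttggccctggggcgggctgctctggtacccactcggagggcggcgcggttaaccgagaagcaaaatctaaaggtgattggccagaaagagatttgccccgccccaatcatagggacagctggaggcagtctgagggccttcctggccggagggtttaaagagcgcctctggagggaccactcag

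Counted from the transcription start, the match began 107 bases upstream in Hba-x, 60 in Fosb, 129 and 66 in Fos, and 233, 213, 69 and 40 in Nr4a1. It began 23 bases upstream in Asns, 193 upstream in Chac1 and 14 bases downstream in Trib3. Such letters are common: over 27025 genes with a window of this length, 28.4% held GATAA, 23.0% held TGACG and 4.51% held TGATGNAA. A match is a description of the sequence, not a binding site. Windows were found for 1685 of the 2290 listed genes.

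Of the 2290 genes, 1693 rose at day 10 (73.9% of those listed) and 597 fell (26.1%). Genes that rose had a median level of 19.9 TPM at day 10 and 5.11 TPM at day 1, and genes that fell had a median of 10.1 TPM at day 10 and 34.96 TPM at day 1. The fallen genes were the more abundant ones at the start: 45 of them reached 100 TPM at day 10 and 145 did at day 1, whereas 119 of the risen genes did so at day 10 and 22 at day 1. Risen genes together held 7.05% of all tags at day 10 and 2.01% at day 1. Fallen genes held 1.89% at day 10 and 5.67% at day 1. The sum over both was close to level, 8.93% of all tags at day 10 and 7.68% at day 1.

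The rises had the longer tail. Most falls were small, 420 of 597 (70.4%) being between 2-fold and 4-fold, against 875 of 1693 rises (51.7%). Changes of at least 8-fold numbered 471 rises (20.6% of the listed genes) and 68 falls (2.97%). The median log2 fold was 1.92 among risen genes and -1.50 among fallen genes, and 1.49 over the whole table. Part of the tail is set by the filter and the floor, which put every gene with no tag at day 1 above 8-fold. Every listed gene averaged at least 12 raw tags per library on its higher day, so a gene silent at day 1 could only be listed as risen; 189 such genes were listed (11.2% of the rises), with day 10 levels of 2.10 to 208 TPM and a median of 5.2 TPM, and 50 of them reached 10 TPM. By contrast 6 genes were at 0 tags at day 10, and these had at most 2.93 TPM at day 1. Counting error alone left the interval clear of 2-fold for 1409 of the rises (83.2%) and 457 of the falls (76.5%). At the edge of the table lay the rise of the ubiquitin ligase gene Uhrf2, 32.8 TPM at day 10, against 16.4 TPM at day 1, and the fall of the tRNA modification gene Yrdc, 25.4 TPM at day 10, against 50.9 TPM at day 1, both 2.00-fold.

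**Figure D1:**
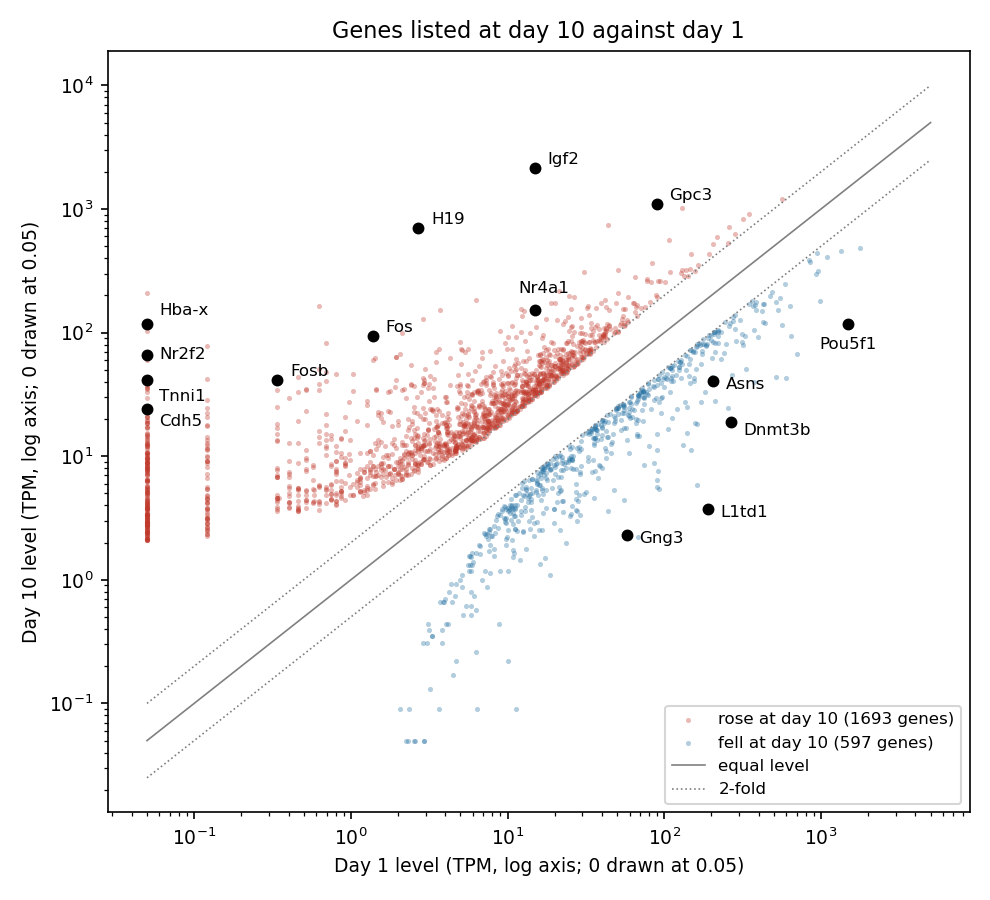
Level of each listed gene at day 10 (vertical axis, mean TPM of 4 libraries) against day 1 (horizontal axis, mean TPM of 3 libraries), both on log axes with 0 drawn at 0.05 TPM. The 1693 red points are genes that rose and the 597 blue points genes that fell; the band between the dotted 2-fold lines is empty because the deposited table lists no smaller change, and the column of red points at the left edge holds the 189 genes with no tag at day 1.

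Among genes at or above the table's median abundance, the steepest rises belonged to developmental regulators and to a few products of differentiated cells. The predicted gene LOC100044263 had the largest, 208 TPM at day 10, against 0 TPM at day 1, at least 1208-fold higher. Hba-x (Entrez Gene 15126), the embryonic alpha-like globin, reached 118 TPM at day 10, against 0 TPM at day 1, at least 685-fold higher. Meis1, a homeobox partner of Hox proteins, stood at 77.5 TPM at day 10, against 0.12 TPM at day 1, 675-fold higher (187 to 5578). Nr2f2 (Entrez Gene 11819), a nuclear receptor of atrial and venous cells also called COUP-TFII, was at 66.1 TPM at day 10, against 0 TPM at day 1, at least 384-fold higher. Pax3, a factor of neural crest and muscle precursors, averaged 59.8 TPM at day 10, against 0 TPM at day 1, at least 347-fold higher. Zfp503, a zinc finger repressor, averaged 166 TPM at day 10, against 0.63 TPM at day 1, 262-fold higher (146 to 526). The wide intervals of Meis1 and its like come from the 2 tags that stand for 0.12 TPM at day 1. Hoxd10, Aldh1a2, Nrp1, H19, Hoxa2 and Tnni1 completed the 12 largest and are described with their groups.

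At or above the same median abundance, the steepest falls were led by genes of the undifferentiated state. L1td1, an RNA-binding protein gene of pluripotent cells, fell to 3.76 TPM at day 10, against 189 TPM at day 1, 50.3-fold lower (40.6 to 63). Next came Slc5a5, the sodium-iodide symporter gene, at 2.23 TPM at day 10, against 68.4 TPM at day 1, 30.7-fold lower (23.2 to 41.5), and Fgf5, a growth factor of the primed pluripotent state, at 5.85 TPM at day 10, against 161 TPM at day 1, 27.5-fold lower (23.1 to 32.9). Cited1, a transcriptional coregulator gene, was high at the start, with 43.2 TPM at day 10, against 597 TPM at day 1, 13.8-fold lower (13 to 14.8). Cx3cl1, which encodes the chemokine fractalkine, fell to 6.38 TPM at day 10, against 89.5 TPM at day 1, 14-fold lower (11.8 to 16.7). The 12 largest falls at this abundance spanned 12.5-fold to 50.3-fold, and every one of the 12 genes still had tags at day 10. Among less abundant genes Nefl was 129-fold lower, with an interval of 35.4 to 1076.

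Pluripotency genes mostly fell. Of 32 on the list, 11 fell, 1 rose and 20 had no entry, so 8.33% of the listed members rose, against 73.9% of all listed genes. Pou5f1 (Entrez Gene 18999), which encodes Oct4 and was the second most abundant of all listed genes at day 1, fell to 117 TPM at day 10, against 1489 TPM at day 1, 12.7-fold lower (12.2 to 13.2). Dnmt3b, the de novo DNA methyltransferase gene, fell to 18.7 TPM at day 10, against 264 TPM at day 1, 14.1-fold lower (12.8 to 15.6). Lin28a, whose protein blocks let-7 maturation, fell to 94.4 TPM at day 10, against 648 TPM at day 1, 6.86-fold lower (6.55 to 7.18), and the chromatin factor gene Utf1 fell to 40.1 TPM at day 10, against 371 TPM at day 1, 9.27-fold lower (8.65 to 9.95). Sall4, Trim71 and Lin28b fell least, by 2.31-fold to 3.23-fold. The exception was Tbx3, 38.5 TPM at day 10, against 3.16 TPM at day 1, 12.2-fold higher (9.29 to 16.3), a T-box gene that is also used in the heart's conduction system and so stands on the cardiac list as well. Nanog, Sox2 and Zfp42 were not listed. In bulk RNA, fewer cells of a type and less RNA per cell cannot be told apart, here or below.

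Several signals of the early embryo went down with them. On the Nodal and activin list 4 of 6 listed members fell and 2 rose (33.3% risen, against 73.9% of all listed genes). Nodal itself, a ligand that holds cells in the primed state, fell to 8.74 TPM at day 10, against 86.2 TPM at day 1. Its relative Gdf3 fell too (3.01 TPM at day 10, against 27.7 TPM at day 1). The inhibitor gene Fst fell to 45.7 TPM at day 10, against 269 TPM at day 1. Foxh1, a partner of Smad proteins, fell to 0 TPM at day 10, against 2.24 TPM at day 1. The activin receptor gene Acvr2a rose to 34.42 TPM at day 10, against 14.98 TPM at day 1. Inha rose to 5.46 TPM at day 10, against 0.46 TPM at day 1. The list of primitive streak and early mesoderm genes gave 8 rises and 4 falls (66.7% risen), near the 73.9% of all listed genes, and held more falls than rises at or above the median abundance. T, the brachyury gene of the streak, fell to 18.6 TPM at day 10, against 156 TPM at day 1, 8.36-fold lower (7.55 to 9.28), and Eomes, its T-box relative, fell to 15.1 TPM at day 10, against 90.3 TPM at day 1, 5.98-fold lower (5.32 to 6.73). Wnt3 and Fgf8, ligands of the streak, fell 5.44-fold and 5.15-fold. The ligand gene Wnt3a went the other way, to 9.17 TPM at day 10, against 0.40 TPM at day 1. Sp5 rose too, to 43.6 TPM at day 10, against 20.5 TPM at day 1. Other members that rose act later or in other tissues as well, such as the vessel receptor genes Kdr and Aplnr, the paraxial mesoderm factor Tbx6 (19.4 TPM at day 10, against 2.47 TPM at day 1) and Cdx2, a regulator of posterior Hox genes (38.4 TPM at day 10, against 4.94 TPM at day 1). In the deposited means of other days T stood at 701 TPM at day 4, and Cdx2 at 235 TPM at day 4 and 165 TPM at day 7.

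Neuronal genes were present at day 1 and mostly fell. The neural list had 10 falls and 4 rises among 14 listed members (28.6% risen, against 73.9% of all listed genes). All 4 defining neuron markers fell, with a summed level of 21.0 TPM at day 10 and 203 TPM at day 1. Stmn2, a microtubule regulator of growing axons, fell to 11.3 TPM at day 10, against 149 TPM at day 1, 13.2-fold lower (11.6 to 15). Gng3, a G protein subunit of neurons, fell to 2.32 TPM at day 10, against 57.7 TPM at day 1, 24.9-fold lower (18.9 to 33.5). The neurofilament gene Nefl was almost gone, at 0.09 TPM at day 10, against 11.3 TPM at day 1, where the day 10 value is 2 tags in 4 libraries. Against this, the adhesion gene Ncam1 rose to 38 TPM at day 10, against 2.41 TPM at day 1, 15.8-fold higher (11.6 to 22), and the neural progenitor factor Sox1 rose to 8.3 TPM at day 10, against 0.92 TPM at day 1, 9.04-fold higher (5.42 to 16.1).

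Positional genes rose as a block. All 25 listed genes of the Hox and Cdx list rose, of 42 on it, against 73.9% of all listed genes. Of the 25, 19 had no tag at day 1, so that for these the filter left no other direction. The summed level was 565.7 TPM at day 10 and 8.80 TPM at day 1. Hoxd10, of the posterior part of its cluster, led with 102 TPM at day 10, against 0 TPM at day 1, at least 594-fold higher. Hoxd3 had 40.1 TPM at day 10, against 0 TPM at day 1, Hoxa10 had 38.8 TPM at day 10, against 0 TPM at day 1, and Hoxc6 had 38 TPM at day 10, against 0 TPM at day 1. Among anterior members Hoxa2 stood at 28.7 TPM at day 10, against 0.12 TPM at day 1, 250.4-fold higher (69 to 2072). The risen Hox genes came from all 4 clusters and from groups 1 to 11. Hoxd10 was already at 93.9 TPM at day 7 and stood at 62.7 TPM at day 14. Of 16 other listed homeobox and forkhead genes 15 rose, among them Tshz1, a zinc finger homeobox gene, at 153 TPM at day 10, against 3.73 TPM at day 1, 40.9-fold higher (32 to 53.1), and Alx4, a gene of limb and skull mesenchyme (15.1 TPM at day 10, against 0 TPM at day 1). The one that fell was Foxd3, a factor of pluripotent cells and neural crest, 0.22 TPM at day 10, against 10.1 TPM at day 1. Of the 16, 6 had no tag at day 1 and could only be listed as risen.

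Retinoic acid genes moved in the same direction, 9 risen and 1 fallen of 10 listed (90% risen, against 73.9% of all listed genes). Of these, 2 had no tag at day 1 and could only be listed as risen. Aldh1a2, the enzyme that makes retinoic acid in mesoderm, rose to 41.8 TPM at day 10, against 0.12 TPM at day 1, 364-fold higher (101 to 3011). The uptake receptor gene Stra6 had 10.6 TPM at day 10, against 0 TPM at day 1. Rarb, a receptor that is itself a retinoic acid target, rose to 23.2 TPM at day 10, against 0.52 TPM at day 1, 45-fold higher (23.5 to 98.9). The binding proteins Crabp1 and Crabp2, which carry the ligand in the cytosol, reached 98.7 and 110.8 TPM at day 10, against 2.12 and 15.2 TPM at day 1. Rxrg, a partner receptor, was the one that fell (1.18 TPM at day 10, against 5.68 TPM at day 1).

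Cardiac transcription factor genes had risen broadly by day 10. Of 37 on the list 20 were listed, 19 risen and 1 fallen (Foxh1, described above), so 95% rose, against 73.9% of all listed genes. For the 8 with no tag at day 1 the filter left no other direction. Of the 20, 16 rose at least 8-fold, against 20.6% of all listed genes. The 8 with no tag at day 1 count here in any case, since against the floor every such gene came out at least 8-fold higher. The summed level of the 20 was 552 TPM at day 10 and 37.9 TPM at day 1. Much of the day 10 sum came from Meis2 (175 TPM), Meis1 (77.5 TPM) and Nr2f2 (66.1 TPM), which are also on the retinoic acid list. Gata4, a zinc finger activator at the top of the cardiac network, was at 14.2 TPM at day 10, against 0 TPM at day 1, at least 82.4-fold higher. Isl1, which marks second heart field progenitors, was at 11.4 TPM at day 10, against 0 TPM at day 1, at least 66-fold higher. Hand1, of the left ventricle and the extraembryonic mesoderm, stood at 11.4 TPM at day 10, against 0.12 TPM at day 1, 99.3-fold higher (27.2 to 824). Prrx1, a homeobox gene of mesenchyme, reached 35.4 TPM at day 10, against 0 TPM at day 1, at least 206-fold higher, and Meis2 175 TPM at day 10, against 20.1 TPM at day 1, 8.7-fold higher (7.8 to 9.74). Mef2c, which activates muscle genes, rose less, to 11.1 TPM at day 10, against 2.98 TPM at day 1, 3.7-fold higher (2.74 to 5.09). Nkx2-5 was not listed at day 10 and was listed at day 14.

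Sarcomere genes were listed in part, and most at a low level. Of 45 on the list 15 were listed and all 15 rose, against 73.9% of all listed genes. For the 9 of the 15 with no tag at day 1 the filter left no other direction. Tnni1 (Entrez Gene 21952), the slow skeletal troponin I that the embryonic heart uses, was at 41.6 TPM at day 10, against 0 TPM at day 1, at least 242-fold higher. Myl4 and Myl7, the atrial light chains of myosin, had 32.8 and 29.7 TPM at day 10, against 0 TPM each at day 1. Tnnt2, cardiac troponin T, had 8.78 TPM at day 10, against 0 TPM at day 1, at least 51-fold higher, and Myh7, a myosin heavy chain, 3.98 TPM at day 10, against 0 TPM at day 1, at least 23.1-fold higher. Mybpc3, Myl3 and Ldb3, which encode parts of the thick filament and Z-disc, lay between 2.84 and 3.15 TPM at day 10, with no tag at day 1. The tropomyosin gene Tpm1 was the most abundant member and changed least, 119 TPM at day 10, against 55.5 TPM at day 1, 2.14-fold higher (1.99 to 2.31); it is used outside muscle too. Of the 4 defining heart muscle markers 1 was listed at day 10, Tnnt2, while Myh6, Actc1 and Nkx2-5 were not. At day 14 Myl7 stood at 267 TPM, Tnnt2 at 66.7 TPM and Tnni1 at 61.7 TPM.

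Calcium handling and ion channel genes were fewer, 8 listed of 37, with 7 risen (87.5%, against 73.9% of all listed genes). The 3 with no tag at day 1 could only be listed as risen. Slc8a1, the sodium-calcium exchanger gene, was the large one, 50.6 TPM at day 10, against 0.63 TPM at day 1, 80.1-fold higher (44.6 to 161). Ryr2, the release channel of the sarcoplasmic reticulum, had 2.23 TPM at day 10, against 0 TPM at day 1, at least 12.9-fold higher, and Pln, which restrains the calcium pump, 2.14 TPM at day 10, against 0 TPM at day 1, at least 12.4-fold higher; these are 51 and 49 tags in 4 libraries. Cacna1c, the L-type calcium channel gene, rose to 8.17 TPM at day 10, against 0.57 TPM at day 1, 14.2-fold higher (7.57 to 30.2). Cacna1g, a T-type channel gene, went the other way, to 4.37 TPM at day 10, against 22.2 TPM at day 1, 5.09-fold lower (4.07 to 6.4).

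**Figure D2:**
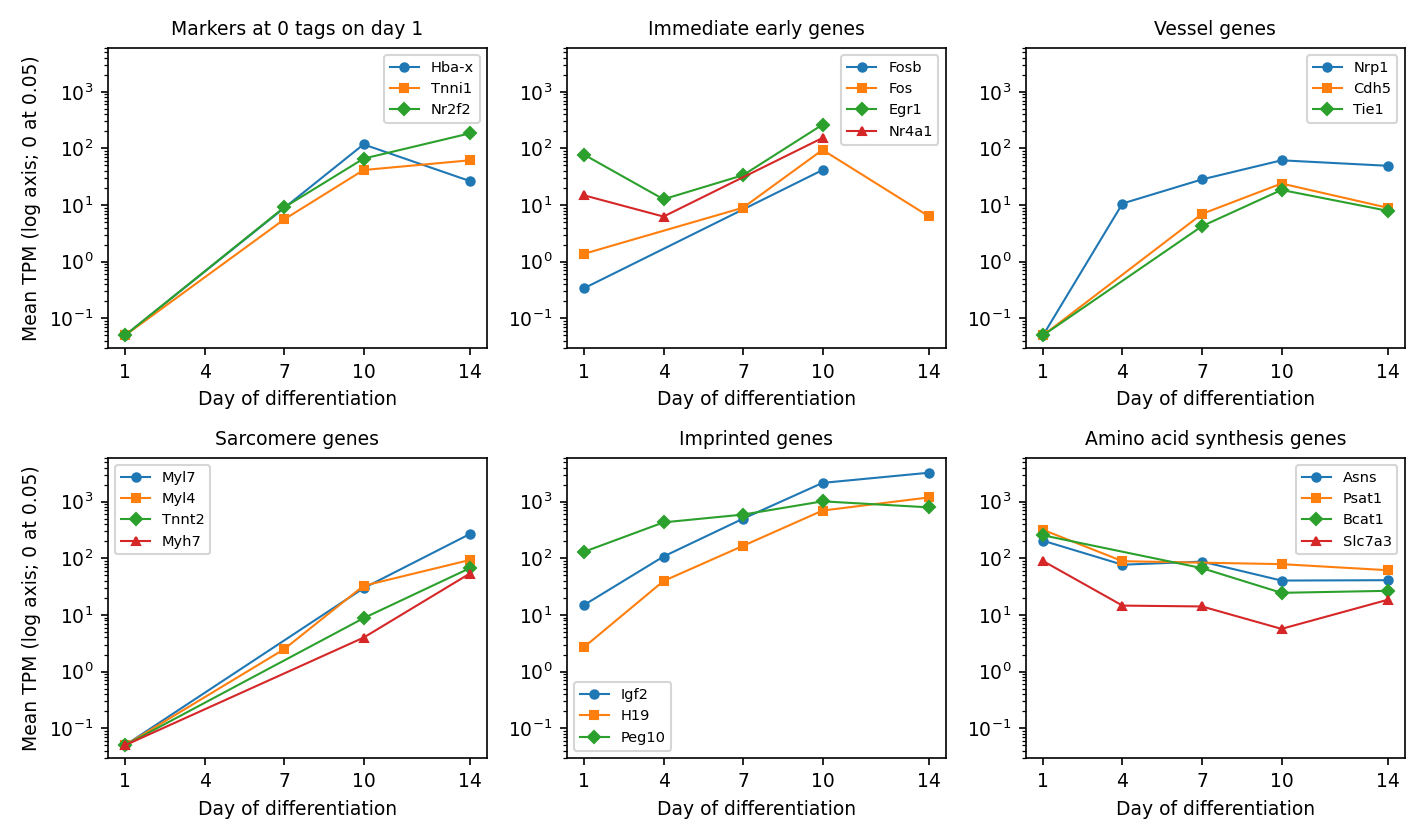
Mean level (TPM, log axis, 0 drawn at 0.05) of named genes at days 1, 4, 7, 10 and 14; a point is the authors' mean over the libraries of a day, and a day without a point is one whose table does not list the gene, across which the line is only a join. Hba-x, Cdh5, Tie1 and the immediate early genes drawn (Fosb, Fos, Egr1 and Nr4a1) stood at their highest listed level at day 10, whereas Myl7, Myl4, Tnnt2 and Myh7 stood higher at day 14 (267 TPM for Myl7, against 29.7 TPM at day 10).

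Vessel lining genes were among the fuller lists. Of 33 on the endothelium list 20 were listed, 18 risen and 2 fallen (90% risen, against 73.9% of all listed genes). For the 8 with no tag at day 1 the filter left no other direction. All 4 defining markers (Cdh5, Pecam1, Tek and Kdr) rose, with a summed level of 39.6 TPM at day 10 and 0.12 TPM at day 1. Cdh5, the cadherin of endothelial junctions, was at 24 TPM at day 10, against 0 TPM at day 1, at least 139.5-fold higher. Tie1, an orphan receptor kinase of vessels, was at 18.5 TPM at day 10, against 0 TPM at day 1, at least 108-fold higher. Nrp1, a co-receptor for Vegf and semaphorins, reached 61.7 TPM at day 10, against 0 TPM at day 1, at least 358-fold higher, and Nrp2 40.5 TPM at day 10, against 0.69 TPM at day 1, 58.9-fold higher (33.5 to 114). Pecam1, Tek, Emcn and Fli1 lay between 4.46 and 13.8 TPM at day 10, all with 0 tags at day 1. The ligand genes were mixed. Vegfc, the lymphatic growth factor, rose to 46.5 TPM at day 10, against 1.03 TPM at day 1, 45-fold higher (28.3 to 76.2) and Vegfa to 73 TPM at day 10, against 18.1 TPM at day 1, 4.04-fold higher (3.58 to 4.57), while Apln, the ligand of Aplnr, fell to 7.86 TPM at day 10, against 26.1 TPM at day 1, 3.31-fold lower (2.78 to 3.96). Flt1, a Vegf receptor that also acts as a trap, fell to 1.75 TPM at day 10, against 10.8 TPM at day 1, 6.18-fold lower (4.37 to 8.92). In the deposited means Cdh5 and Tie1 were at 6.98 and 4.24 TPM at day 7 and at 8.98 and 7.93 TPM at day 14, both below day 10.

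Blood genes rose in 9 of 10 listed cases (90%, against 73.9% of all listed genes), 5 of them from no tag, where the filter left no other direction. Of 4 defining markers 3 were listed and all were at 0 at day 1, with a summed level of 129 TPM at day 10, nearly all of it Hba-x. Hbb-y, the embryonic beta-like globin, was far lower, at 7.12 TPM at day 10, against 0 TPM at day 1, at least 41.4-fold higher. The erythroid factor Gata1 had 3.67 TPM at day 10, against 0 TPM at day 1, and Alas2, the first enzyme of heme synthesis in red cells, 5.2 TPM at day 10, against 0 TPM at day 1. Runx1, needed for definitive blood, had 7.25 TPM at day 10, against 0 TPM at day 1, at least 42.1-fold higher, and Lmo2, a partner of Tal1 in blood and vessel precursors, 22.7 TPM at day 10, against 1.78 TPM at day 1, 12.8-fold higher (8.88 to 19). Car2, a carbonic anhydrase gene of red cells and other tissues, fell to 21.3 TPM at day 10, against 59.4 TPM at day 1, 2.78-fold lower (2.5 to 3.11). Hba-x was not listed at days 4 and 7 and stood at 26.7 TPM at day 14. GATAA occurred in the windows of 3 of the 8 risen blood genes that have one, including Hba-x as shown above, against 28.4% of all genes and 19.5% of risen genes; it occurred in 5 of 13 windows of risen sarcomere genes.

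Mesenchymal and epicardial genes all rose, 10 of 10 listed, 9 of them at least 8-fold. Of all listed genes 73.9% rose, and 20.6% rose at least 8-fold. The 2 with no tag at day 1 could only be listed as risen, and the floor puts them above 8-fold. Twist1, a driver of mesenchymal state, was at 129 TPM at day 10, against 2.87 TPM at day 1, 44.9-fold higher (34 to 60.6). Cdh11, the mesenchymal cadherin, was at 82.2 TPM at day 10, against 0.69 TPM at day 1, 119-fold higher (68.1 to 231), while the epithelial cadherin Cdh1 fell to 7.99 TPM at day 10, against 16.5 TPM at day 1, 2.06-fold lower (1.71 to 2.49). Postn, a matrix protein of heart cushions and fibroblasts, reached 24.6 TPM at day 10, against 0.12 TPM at day 1, 214-fold higher (59 to 1773). Snai2, a repressor of epithelial genes, and Tbx18, of the epicardium, had 17.4 and 9.52 TPM at day 10, against 0.12 and 0 TPM at day 1. Epithelial genes gave 4 rises and 3 falls (57.1% risen, against 73.9% of all listed genes): the keratin genes Krt8 and Krt18 rose about equally, 7.09-fold and 6.93-fold, and Epcam fell to 18.1 TPM at day 10, against 37.8 TPM at day 1, 2.09-fold lower (1.85 to 2.37). All 3 listed smooth muscle genes rose, with Acta2, the smooth muscle actin, at 63.1 TPM at day 10, against 1.95 TPM at day 1, 32.3-fold higher (23 to 46.9). Endoderm genes gave 11 rises and 2 falls (84.6% risen), though several act in other tissues too. Among the rises, 3 were from no tag at day 1, where no other direction could be listed. Of the 4 defining markers Sox17 and Foxa2 were listed, at 8.74 and 5.02 TPM at day 10, against 0 and 0.40 TPM at day 1, and Afp and Ttr were not.

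Matrix genes rose in large number. Collagen genes rose in 19 of 19 listed cases, other matrix glycoproteins and proteoglycans in 23 of 24, matrix proteases and their inhibitors in 18 of 18, and integrins in 6 of 6. With no tag at day 1, 6 of the collagen genes could only be listed as risen. So could 3, 2 and 2 members of the other lists, in that order. Of all listed genes 73.9% rose. Col18a1, of basement membranes, was the most abundant collagen gene at 256 TPM at day 10, against 81.7 TPM at day 1, 3.13-fold higher (2.95 to 3.32). Col4a1 and Col4a2, the main chains of basement membrane collagen, rose 3.51-fold and 4.17-fold. Col2a1, the cartilage collagen that cushions and notochord also make, was at 69.8 TPM at day 10, against 3.5 TPM at day 1, 19.9-fold higher (15.4 to 26.2). The fibrillar genes Col1a1 and Col1a2 were still low, with 4.28 and 9.22 TPM at day 10, against 0.34 and 0.12 TPM at day 1. Gpc3, a glypican that binds growth factors, was the third most abundant listed gene of day 10, 1091 TPM at day 10, against 89.3 TPM at day 1, 12.2-fold higher (11.6 to 12.9). Fn1, fibronectin, rose to 125 TPM at day 10, against 23.1 TPM at day 1, 5.39-fold higher (4.85 to 5.99), and Vcan and Hapln1, which bind hyaluronan in the cardiac jelly, had 33.5 and 35.3 TPM at day 10, against 1.78 and 0 TPM at day 1. Serpinh1, the collagen chaperone, was at 435 TPM at day 10, against 147 TPM at day 1, 2.95-fold higher (2.82 to 3.08). Frem2, a basement membrane protein of epithelia, was the one that fell (29.1 TPM at day 10, against 68.4 TPM at day 1).

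Guidance and adhesion receptors followed. Semaphorins, plexins and neuropilins gave 9 rises and 1 fall (90% risen), and ephrins, slits, netrins and their receptors 19 and 2 (90.5%). Of all listed genes 73.9% rose. Sema3c, which guides cells into the outflow tract, was at 62.5 TPM at day 10, against 1.43 TPM at day 1, 43.6-fold higher (29.4 to 67.5). Sema6d, a membrane-bound semaphorin, was at 22.4 TPM at day 10, against 0.12 TPM at day 1, 196-fold higher (53.9 to 1619). Efnb2, the arterial ephrin, was at 113 TPM at day 10, against 25.8 TPM at day 1, 4.39-fold higher (3.97 to 4.86). Slit2 and its receptor gene Robo2 had 28.1 and 14.7 TPM at day 10, against 1.26 and 0 TPM at day 1. Cadherins and protocadherins gave 12 rises and 2 falls (85.7% risen). Here 4 had no tag at day 1 and could only be listed as risen. Of the rises 4 are Pcdhb genes, whose sequences are much alike, so counting may have shared tags among them. The falls here were Epha1, Unc5a, Sema6b, Cdh1 and Pcdh1, all with at most 7.99 TPM at day 10.

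Ligand pathways were led by growth factors. All 18 listed genes of the growth factor list rose, against 73.9% of all listed genes. Igf2 (Entrez Gene 16002), an imprinted fetal growth factor, was the most abundant listed gene of day 10, 2147 TPM at day 10, against 15 TPM at day 1, 143-fold higher (127 to 163). Its clearance receptor gene Igf2r rose to 85 TPM at day 10, against 12.9 TPM at day 1, 6.61-fold higher (5.75 to 7.62). Platelet-derived growth factor genes rose on both sides, the ligand gene Pdgfc to 54.9 TPM at day 10, against 2.41 TPM at day 1, 22.8-fold higher (16.8 to 31.8) and the receptor gene Pdgfrb to 11.2 TPM at day 10, against 0.12 TPM at day 1, 97.8-fold higher (26.8 to 812). Kitl, the ligand of Kit, was at 33.5 TPM at day 10, against 1.03 TPM at day 1, 32.4-fold higher (20.4 to 54.9) and Kit at 15.7 TPM at day 10, against 4.13 TPM at day 1, 3.79-fold higher (2.94 to 4.96). The Jak-STAT pathway as the file assigns it held 22 risen genes and 1 fallen, among them the receptor gene Lifr, at 56.4 TPM at day 10, against 11.7 TPM at day 1, 4.84-fold higher (4.17 to 5.64), and Stat3, at 38.3 TPM at day 10, against 6.72 TPM at day 1, 5.7-fold higher (4.7 to 6.98); the file's pathway sets include genes not usually placed there, and these were picked out after their counts had been seen.

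TGF-β genes, the subject of the study's title, gave 9 rises and 1 fall among 10 listed of 33 (90% risen, against 73.9% of all listed genes). Tgfb2, the ligand of heart cushion formation, was at 19.2 TPM at day 10, against 1.09 TPM at day 1, 17.6-fold higher (11.1 to 29.5). Tgfbr2, the type II receptor gene, was at 5.59 TPM at day 10, against 0.98 TPM at day 1, 5.73-fold higher (3.44 to 10.1), while Tgfbr1 was not listed at day 10. Smad3, a signal transducer, rose to 52.1 TPM at day 10, against 17.7 TPM at day 1, 2.95-fold higher (2.6 to 3.35), and Smad7, an inhibitor induced by the pathway, to 100.3 TPM at day 10, against 41.9 TPM at day 1, 2.39-fold higher (2.2 to 2.61). Smad2 and Smad4 were not listed. The co-receptor gene Tgfbr3 was the one that fell, to 8.08 TPM at day 10, against 23.5 TPM at day 1, 2.91-fold lower (2.44 to 3.48). The BMP list gave 12 rises and 1 fall (92.3% risen). Bmp4 and Bmp2, ligands of mesoderm and heart, had 60.0 and 12.3 TPM at day 10, against 1.38 and 0.12 TPM at day 1. Their targets Id1, Id2 and Id3 all rose, Id2 to 739 TPM at day 10, against 44 TPM at day 1, 16.8-fold higher (15.6 to 18.1), as did the target Msx1 to 184 TPM at day 10, against 6.26 TPM at day 1, 29.5-fold higher (24.4 to 36). The inhibitor genes Nog and Smad6 rose also, to 18.3 and 43.5 TPM at day 10, against 0.34 and 7.86 TPM at day 1. The inhibitor gene Fst was the one that fell, to 45.7 TPM at day 10, against 269 TPM at day 1.

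Wnt pathway genes gave 17 rises and 4 falls (81% risen), near the 73.9% of all listed genes. Wnt5a, a ligand of the non-canonical kind, rose to 32.8 TPM at day 10, against 0.46 TPM at day 1, 71.4-fold higher (36.1 to 166). Wnt6 rose to 34.1 TPM at day 10, against 0.63 TPM at day 1, 54-fold higher (29.99 to 109), and Notum, a secreted enzyme that inactivates Wnt proteins, to 27.6 TPM at day 10, against 0.97 TPM at day 1, 28.3-fold higher (17.6 to 49). Frizzled receptor genes rose in 5 cases and fell in 1: Fzd10 was the highest, at 261 TPM at day 10, against 93.6 TPM at day 1, 2.78-fold higher (2.64 to 2.94), and Fzd5 fell to 7.12 TPM at day 10, against 20.1 TPM at day 1, 2.83-fold lower (2.34 to 3.43). Tcf7l1, a repressor of Wnt targets in pluripotent cells, fell to 28.1 TPM at day 10, against 67.2 TPM at day 1, 2.39-fold lower (2.17 to 2.63). Notch genes gave 7 rises and 1 fall (87.5% risen). Hey1 and Hey2, Notch targets of heart and vessels, had 12.9 and 4.63 TPM at day 10, against 1.84 and 0 TPM at day 1, and Dll4, the arterial ligand gene, 7.03 TPM at day 10, against 0 TPM at day 1. Hes5, the Notch target of neural progenitors, fell to 2.27 TPM at day 10, against 14.7 TPM at day 1, 6.47-fold lower (4.79 to 8.89). FGF genes gave 5 falls (the ligand genes Fgf5, Fgf8 and Fgf15 and the target factors Etv4 and Etv5) and 9 rises, among them the ligand genes Fgf9 and Fgf10 and the receptor gene Fgfr2, at 41.7 TPM at day 10, against 2.93 TPM at day 1, 14.3-fold higher (10.7 to 19.3). The share risen, 64.3%, was near the 73.9% of all listed genes, and at or above the median abundance the list held more falls than rises.

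Hedgehog and cilium genes all rose, 13 of 13 listed of 47, against 73.9% of all listed genes. The co-receptor genes Boc, Gas1 and Cdon, which bind hedgehog beside its receptor, were at 41.2, 148 and 112 TPM at day 10, against 1.95, 12.7 and 10.7 TPM at day 1. Gli1, a target and readout of the pathway, rose to 13.6 TPM at day 10, against 0.69 TPM at day 1, 19.8-fold higher (11.2 to 38.7), and Hhip, a target that traps the ligand, had 2.62 TPM at day 10, against 0 TPM at day 1, at least 15.2-fold higher. Gli2 and Gli3, the transcription factors, rose 3.97-fold and 3.09-fold. Genes of the primary cilium, the organelle through which the signal passes, rose as well. Arl13b, a membrane GTPase of the cilium, was at 22.3 TPM at day 10, against 7.12 TPM at day 1, 3.14-fold higher (2.57 to 3.85). Kif3a, the motor subunit of transport into the cilium, was at 56.2 TPM at day 10, against 20.2 TPM at day 1, 2.78-fold higher (2.47 to 3.14), and Ift81 at 25 TPM at day 10, against 11.7 TPM at day 1, 2.14-fold higher (1.82 to 2.52). Ift88 was not listed.

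Immediate early genes rose in every listed case, 19 of 19 with 38 on the list, whereas 73.9% of all listed genes rose. In the table for day 4, 2 rose and 4 fell, in that for day 7, 8 rose and 1 fell, and in that for day 14, 11 rose and 1 fell, where 50.5% (day 4), 63.5% (day 7) and 74.4% (day 14) of all listed genes rose; all 4 tables share the same day 1 libraries. Fosb (Entrez Gene 14282), a partner of Jun in the AP-1 factor, stood at 41.6 TPM at day 10, against 0.34 TPM at day 1, 121-fold higher (55.3 to 329.9), and was listed at no other day. Fos (Entrez Gene 14281) stood at 94.4 TPM at day 10, against 1.38 TPM at day 1, 68.5-fold higher (45.9 to 107), with 8.99 TPM at day 7 and 6.38 TPM at day 14. Egr1, a zinc finger factor, was the most abundant, at 263 TPM at day 10, against 77.7 TPM at day 1, 3.39-fold higher (3.19 to 3.6); it had 12.7 TPM at day 4 and 33.7 TPM at day 7 and was not listed at day 14. Nr4a1 (Entrez Gene 15370), an orphan nuclear receptor, was at 153 TPM at day 10, against 14.9 TPM at day 1, 10.3-fold higher (9.09 to 11.7), with 6.27 TPM at day 4. Jun itself was at 91.6 TPM at day 10, against 10.1 TPM at day 1, 9.06-fold higher (7.77 to 10.6), with 61.6 TPM at day 14.

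Counting 2 genes with no tag at day 1 at their lower bound, the rest of the list rose 2.38-fold to 40.3-fold, from Jund at 51.4 TPM at day 10, against 21.6 TPM at day 1 to Egr2 at 4.63 TPM at day 10, against 0.12 TPM at day 1. It includes the mRNA decay factors Zfp36 and Zfp36l1, the phosphatase gene Dusp2, the damage response genes Gadd45a and Gadd45g, and Cyr61, a matrix signal induced by stretch and serum. TGACG occurred in the windows of 8 of the 16 risen members that have one, against 23.0% of all genes and 30.7% of risen genes; Nr4a1 held it 4 times and Fos 2 times, as printed above. The box called CArG, read by serum response factor, occurred in 2 of the 16, against 1.81% of all genes and 2.1% of risen genes. The same box occurred in 5 of 13 windows of risen sarcomere genes. The deposited means do not show whether all 4 day 10 libraries carry these levels of the immediate early genes.

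**Figure D3:**
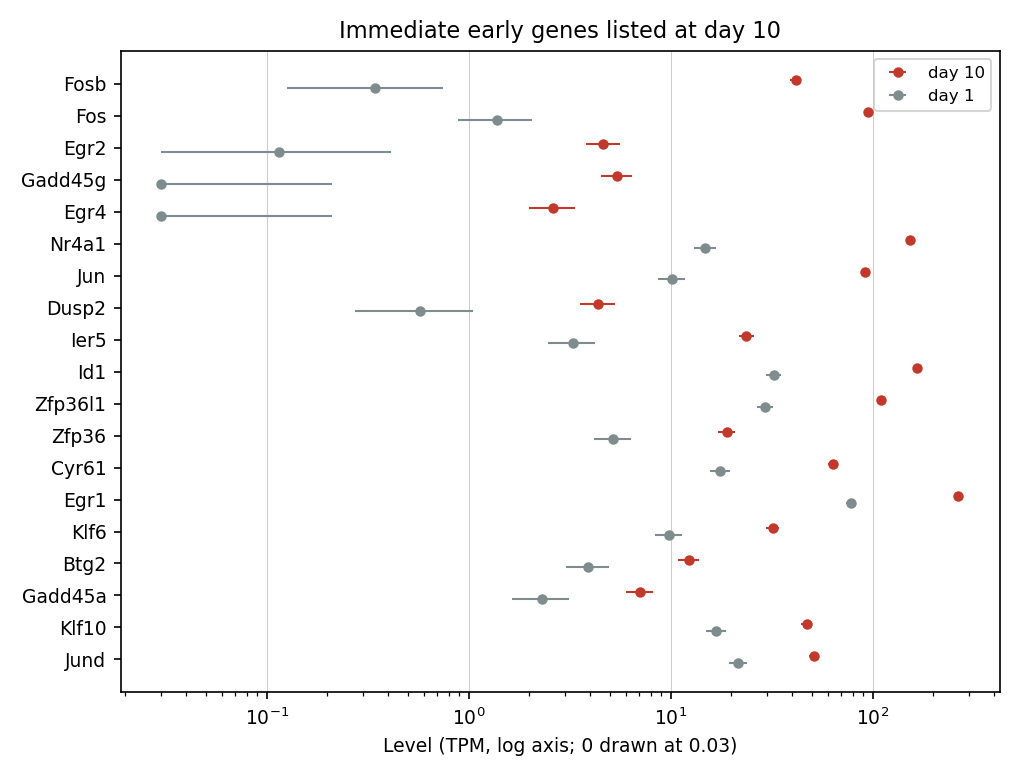
Level (TPM, log axis, 0 drawn at 0.03) of the 19 immediate early genes listed at day 10, at day 10 (red) and day 1 (grey), ordered by fold; bars are exact 95% Poisson intervals on the summed tags and cover counting error only. All 19 red points lie to the right of their grey points, from Jund (51.4 TPM at day 10, 21.6 TPM at day 1) to Fosb (41.6 TPM at day 10, 0.34 TPM at day 1).

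Amino acid supply genes fell almost without exception, 14 of 15 listed of 33 (6.67% risen, against 73.9% of all listed genes). Asns (Entrez Gene 27053), asparagine synthetase, fell to 40.5 TPM at day 10, against 205 TPM at day 1, 5.06-fold lower (4.7 to 5.44). Psat1 and Psph, of serine synthesis, fell 4.04-fold and 5.05-fold, Psat1 to 78.9 TPM at day 10, against 319 TPM at day 1. Mthfd1, of the cytosolic folate cycle, fell to 115 TPM at day 10, against 563 TPM at day 1, 4.9-fold lower (4.69 to 5.12), and its mitochondrial counterpart Mthfd2 to 68.5 TPM at day 10, against 239 TPM at day 1, 3.49-fold lower (3.29 to 3.7). Bcat1, which takes the amino group from leucine and its kin, fell to 24.6 TPM at day 10, against 255 TPM at day 1, 10.4-fold lower (9.5 to 11.3). Transporters went down with the enzymes: Slc7a3, for arginine and lysine, fell to 5.68 TPM at day 10, against 89.8 TPM at day 1, 15.8-fold lower (13.2 to 19.05), Slc7a7 fell 7.63-fold and Slc1a5, for glutamine, 2.62-fold. Arg1, arginase, was the one that rose, to 2.18 TPM at day 10, against 0 TPM at day 1, at least 12.7-fold higher.

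Trib3 (Entrez Gene 228775), a pseudokinase gene, fell to 10.7 TPM at day 10, against 59.6 TPM at day 1, 5.6-fold lower (4.86 to 6.46), and Chac1 (Entrez Gene 69065), a glutathione-degrading enzyme, to 1.35 TPM at day 10, against 16.1 TPM at day 1, 11.9-fold lower (8.17 to 17.8). Both are on the list of heat shock and unfolded protein genes, where 9 fell and 3 rose (25% risen, against 73.9% of all listed genes). Of those with an absolute log2 fold of at least 2, 3 fell and 3 rose. TGATGNAA occurred in the windows of 3 of 10 fallen amino acid genes that have one (Asns, Slc1a4 and Slc7a7), and in 3 of 6 fallen genes of the heat shock and unfolded protein list (Asns, which is on both, Trib3 and Chac1), against 4.51% of all genes and 5.84% of fallen genes. The chaperones that fell changed less, Hsp90aa1 to 373 TPM at day 10, against 845 TPM at day 1, 2.26-fold lower (2.2 to 2.33) and Hspa9, of mitochondria, to 197 TPM at day 10, against 470.2 TPM at day 1, 2.38-fold lower (2.3 to 2.47). Hspa8, Hspd1 and Eef1b2 have many near-copies in the genome, so their counts are uncertain. Cryab, the small heat shock protein of muscle, rose to 4.19 TPM at day 10, against 0.12 TPM at day 1, 36.5-fold higher (9.84 to 306).

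**Figure D4:**
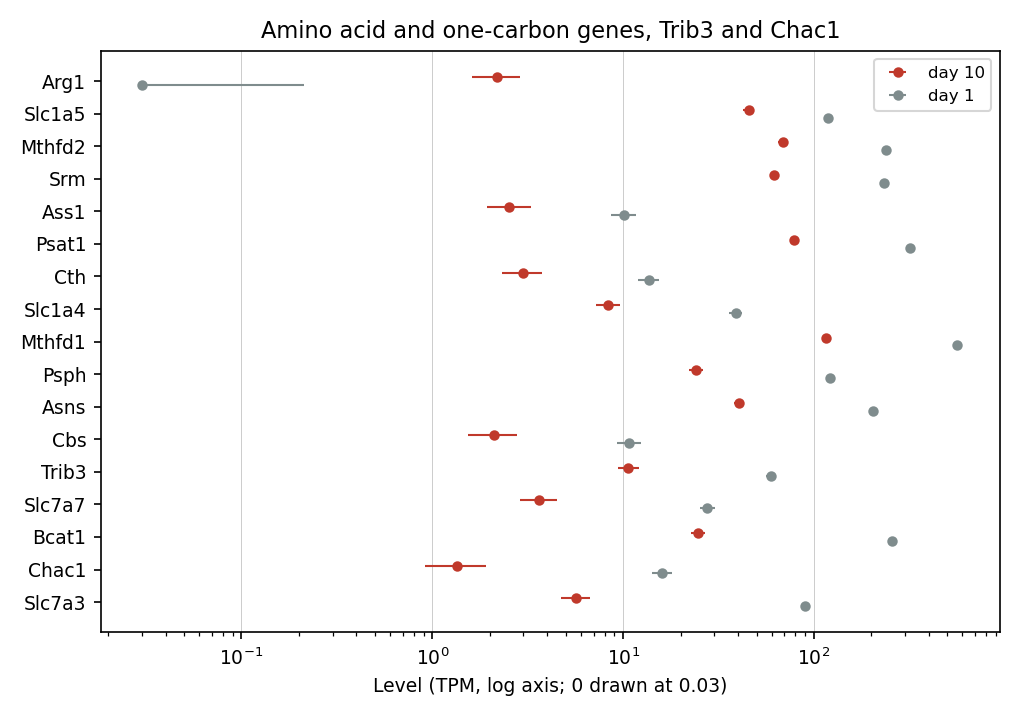
Level (TPM, log axis, 0 drawn at 0.03) of the 15 listed amino acid and one-carbon genes together with Trib3 and Chac1, at day 10 (red) and day 1 (grey), ordered by fold; bars are exact 95% Poisson intervals on the summed tags and cover counting error only. For 16 of the 17 genes the day 10 point lies to the left of the day 1 point, farthest for Slc7a3 (5.68 TPM at day 10, 89.8 TPM at day 1); Arg1 is the exception.

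Protein synthesis genes formed the other large group of falls. Where 26.1% of all listed genes fell, 23 of 24 fell under the file's own term "translation". They include 9 aminoacyl-tRNA synthetases of the cytosol, which charge tRNAs with amino acids: Lars fell to 96.5 TPM at day 10, against 311 TPM at day 1, 3.22-fold lower (3.06 to 3.38), Gars to 84.9 TPM at day 10, against 286 TPM at day 1, 3.37-fold lower (3.2 to 3.55) and Nars to 133 TPM at day 10, against 276 TPM at day 1, 2.07-fold lower (1.98 to 2.17), and Mars, Iars, Cars, Yars, Tars and Aars fell too. Eif5a, an elongation factor and the third most abundant listed gene of day 1, fell to 458 TPM at day 10, against 1341 TPM at day 1, 2.93-fold lower (2.86 to 2.99). Etf1, the release factor, fell to 177 TPM at day 10, against 516 TPM at day 1, 2.91-fold lower (2.8 to 3.02). Rpl22 was the one that rose (21.1 TPM at day 10, against 5.05 TPM at day 1). Few ribosomal protein genes were listed at all: on the list of ribosomal and translation genes 3 of 29 were listed, all fallen, and none by 4-fold or more. The 3 were Eef1b2, Rps27l and Eif4ebp1, so that count says little of the ribosome itself. Pyrimidine metabolism as the file assigns it held 12 falls and 3 rises, with Dut, which keeps uracil out of DNA, at 317 TPM at day 10, against 956 TPM at day 1, 3.01-fold lower (2.93 to 3.1). The file's term "Spliceosome" gave 12 falls and 7 rises, and its term "mitosis" 19 falls and 10 rises. The rises under "Spliceosome" include genes not usually placed there, such as Slc44a2 and Atg16l2. These terms, of at least 15 listed genes each, stand out by their share of falls, and no test was made of them. Pcbp2, an RNA-binding protein gene and the most abundant of all listed genes at day 1, fell to 479.9 TPM at day 10, against 1778 TPM at day 1, 3.7-fold lower (3.62 to 3.79).

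Few of the 51 genes on the cell cycle list were listed, 2 risen and 3 fallen, where 26.1% of all listed genes fell at day 10. The G1 cyclin genes Ccnd1 and Ccnd2 both rose 3.33-fold, Ccnd2 to 195 TPM at day 10, against 58.4 TPM at day 1. Plk1, a mitotic kinase gene, fell to 69.8 TPM at day 10, against 157 TPM at day 1, 2.25-fold lower (2.11 to 2.39), and Ccne1, of the G1/S step, to 25.7 TPM at day 10, against 52.4 TPM at day 1, 2.03-fold lower (1.83 to 2.26). In the tables of the other days, 1 rose and 15 fell at day 4, 2 rose and 8 fell at day 7, and 2 rose and 11 fell at day 14, where 49.5% (day 4), 36.5% (day 7) and 25.6% (day 14) of all listed genes fell. The inhibitor gene Cdkn1b rose to 36 TPM at day 10, against 15.6 TPM at day 1, 2.31-fold higher (2.01 to 2.66), and Gas1, which also slows growth, is given with hedgehog genes. Trp53 fell to 121 TPM at day 10, against 245 TPM at day 1, 2.02-fold lower (1.92 to 2.12).

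Hypoxia and glycolysis genes all rose, 10 of 10 listed of 43, by 2.39-fold to at least 20.04-fold. At day 10, 73.9% of all listed genes rose. The glucose transporter genes Slc2a3 and Slc2a1 were the abundant ones, at 522 and 305 TPM at day 10, against 206 and 128 TPM at day 1. Eno2 and Eno3, the neuronal and muscle enolases, rose to 35.6 and 32.3 TPM at day 10, against 3.1 and 5.0 TPM at day 1. Egln3, an oxygen sensor that hypoxia induces, was at 31.3 TPM at day 10, against 9.01 TPM at day 1, 3.48-fold higher (2.92 to 4.16). In the other tables this list gave 16 rises and 0 falls at day 4, 4 rises and 9 falls at day 7, and 11 rises and 1 fall at day 14, where 50.5% (day 4), 63.5% (day 7) and 74.4% (day 14) of all listed genes rose. Lysosomal genes as the file assigns them rose at day 10 in 21 of 23 cases (91.3%, against 73.9% of all listed genes). Among them were the membrane protein gene Lamp2, at 90.8 TPM at day 10, against 16.5 TPM at day 1, 5.49-fold higher (4.85 to 6.24), and the protease gene Ctsh, at 16.9 TPM at day 10, against 0.34 TPM at day 1, 49.2-fold higher (22.4 to 135).

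Imprinted genes, which are read from 1 parental copy and act mostly on fetal growth, rose in 13 of 13 listed cases (all listed genes: 73.9%). Their summed level was 5372 TPM at day 10 and 559 TPM at day 1. Next to Igf2 lies H19, a long non-coding RNA of the same imprinted domain, at 697 TPM at day 10, against 2.7 TPM at day 1, 259-fold higher (194 to 352). Peg10, a retrotransposon-derived gene of the placenta, was at 1015 TPM at day 10, against 130.3 TPM at day 1, 7.79-fold higher (7.46 to 8.14), Plagl1, a zinc finger factor, at 321 TPM at day 10, against 50.9 TPM at day 1, 6.31-fold higher (5.88 to 6.77), and Mest at 719 TPM at day 10, against 258 TPM at day 1, 2.78-fold higher (2.69 to 2.88). Igf2 and H19 had climbed through 108 and 39.8 TPM at day 4 and 501 and 166 TPM at day 7, and stood at 3243 and 1187 TPM at day 14.

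Chromatin genes gave 13 rises and 3 falls (81.2% risen), near the 73.9% of all listed genes. Hmga2, an architectural protein of embryonic mesenchyme and a known let-7 target, was at 309.7 TPM at day 10, against 30.8 TPM at day 1, 10.1-fold higher (9.22 to 11). Polycomb genes moved both ways: Cbx2 and Bmi1 rose, while Cbx7 and Phc1 fell, Cbx7 to 4.32 TPM at day 10, against 28.1 TPM at day 1, 6.49-fold lower (5.22 to 8.14), as did the core subunit gene Eed (43 TPM at day 10, against 102 TPM at day 1). Among the Tet enzymes, which oxidise methylated DNA, Tet1 fell to 9.39 TPM at day 10, against 25.9 TPM at day 1, 2.76-fold lower (2.34 to 3.26) and Tet2 rose to 37.1 TPM at day 10, against 9.36 TPM at day 1, 3.96-fold higher (3.35 to 4.72), as did Tet3 (9.48 TPM at day 10, against 2.93 TPM at day 1). Smarcd3, the heart subunit of the BAF remodeller, rose to 41.8 TPM at day 10, against 3.39 TPM at day 1, 12.3-fold higher (9.49 to 16.3).

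Cytoskeletal genes rose in 20 of 22 listed cases. Flnc, the muscle filamin, was at 173 TPM at day 10, against 39.5 TPM at day 1, 4.39-fold higher (4.05 to 4.77), and Marcks, a membrane-actin linker, at 595 TPM at day 10, against 216 TPM at day 1, 2.76-fold higher (2.66 to 2.86). Vcl, of focal adhesions, fell to 82 TPM at day 10, against 210.2 TPM at day 1, 2.56-fold lower (2.42 to 2.71), and Crip2, a LIM protein gene, to 18.2 TPM at day 10, against 162 TPM at day 1, 8.89-fold lower (8.02 to 9.88). Pfn1, profilin, which feeds actin growth and is not on this list, fell to 409.6 TPM at day 10, against 1093 TPM at day 1, 2.67-fold lower (2.6 to 2.74). Endocytosis genes gave 6 rises and 3 falls (66.7% risen), near the 73.9% of all listed genes, and were tied at or above the median abundance. Cav1 and Ptrf, which build caveolae, had 16.9 and 22.2 TPM at day 10, against 0 and 5.11 TPM at day 1, and the adaptor gene Dab2 rose to 83 TPM at day 10, against 9.64 TPM at day 1, 8.6-fold higher (7.34 to 10.1). Lrp2, a receptor that Dab2 helps to take up, fell to 13.4 TPM at day 10, against 58.1 TPM at day 1, 4.34-fold lower (3.81 to 4.94), Ehd3, of recycling endosomes, to 11.2 TPM at day 10, against 90.3 TPM at day 1, 8.05-fold lower (7.05 to 9.22), and Cd209c, a lectin gene, to 43.9 TPM at day 10, against 517 TPM at day 1, 11.8-fold lower (11 to 12.6). Cltc and Eea1, the clathrin chain and the early endosome tether, were not listed at day 10.

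Over the 46 lists with at least 3 listed members, 36 held more rises than falls. With 73.9% of all listed genes risen, most lists would hold more rises in any case, and some genes stand on several lists. On every list, members with no tag at day 1 could count only as rises. The germline and DNA methylation list was tied, with 3 rises and 3 falls. Those with more falls, ordered by their share of rises, were led by ribosomal and translation genes, amino acid supply and pluripotency, followed by cholesterol synthesis (3 falls and 1 rise), heat shock and unfolded protein genes, neural genes, and the Nodal, cell cycle and redox lists. The chemokine list held 8 rises and 1 fall, that of the class I histocompatibility gene H2-K1 (0.39 TPM at day 10, against 3.16 TPM at day 1). Redox genes gave 4 falls and 3 rises, with Gclm, of glutathione synthesis, at 4.94 TPM at day 10, against 30.6 TPM at day 1, 6.21-fold lower (5.06 to 7.68) and Gpx8, a peroxidase of the endoplasmic reticulum, at 130.3 TPM at day 10, against 29.6 TPM at day 1, 4.41-fold higher (4.01 to 4.85).

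**Figure D5:**
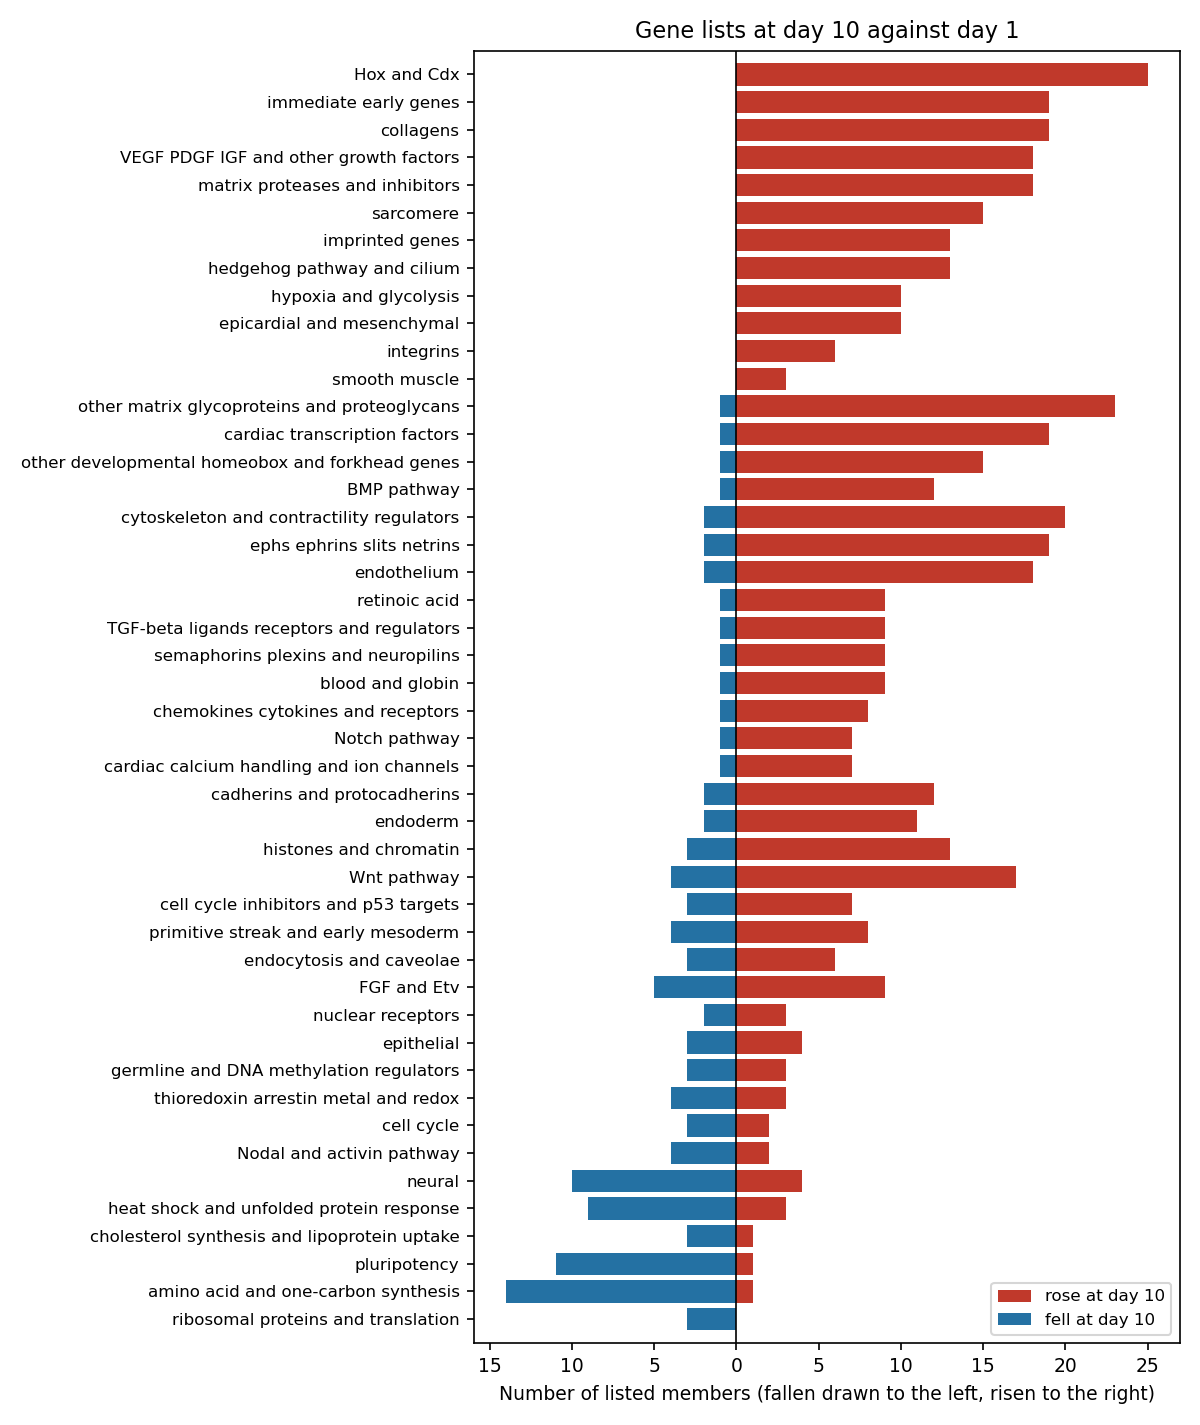
Number of listed members that rose (red, to the right) and fell (blue, to the left) at day 10 for the 46 gene lists with at least 3 listed members, ordered by share of rises. Hox and Cdx genes (25 risen, 0 fallen), immediate early genes (19 and 0) and collagens (19 and 0) stand at the top, and ribosomal and translation genes (0 risen, 3 fallen), amino acid supply (1 and 14) and pluripotency (1 and 11) at the bottom.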

How the data were processed

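Total RNA of P19CL6 cells was profiled with the DGE Tag Profiling Kit (protocol 2.1B per the labels' protocols), and the genome build is mm9 per the submitters' processing notes. For the aligner, the enzyme and the test, nothing is stated in the sources used here. The authors deposited, per gene and day, a mean raw tag count over the libraries and a TPM value, the tag count scaled to a common library total. They also deposited a log2 ratio of day 10 over day 1, whose smallest size is 1, and columns headed P-Value and FDR. These last are treated as scores of the authors, per the file headers of unknown scale, because 14.2% of the P-Value and 60.1% of the FDR entries exceed 1, and they were not used. Per the labels' design text an FDR filter was applied, so the table is incomplete. A deposited TPM of 0.01 was read as 0.

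The deposited mean counts, times 4 libraries at day 10 or 3 at day 1, were whole within 0.01 for 100% of genes, which gave the summed tags. Group totals were 2.29e+07 tags at day 10 and 1.74e+07 at day 1. The fold (ratio) of the deposited tag sums per group total carries an exact 95% Clopper-Pearson interval, and 0 tags were set to 3 tags over the group (0.131 TPM at day 10, 0.172 TPM at day 1). Levels carry exact Poisson intervals. Intervals and floors cover counting error only, since PCR copies of a tag are not told apart. Tables hold 0 columns of single libraries, so no test between replicates was made. For 74 genes with a blank symbol the symbol was read from the description. If replicates were not separate cultures, their spread would be technical.

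The genes, the 48 gene lists and the markers were chosen with earlier results of these data known. Named genes are the 4 markers Hba-x, Tnni1, Fosb and Nr2f2, the 12 largest rises and 12 largest falls at or above the table's median abundance of 22.3 TPM, up to 6 members per list, the 8 most abundant genes of each day, 5 rises and 5 falls nearest to 2-fold, and genes followed whether listed or not. Further list and term members were named after their values were seen. Alternatives were a median abundance filter, an absolute log2 fold of at least 2, at least 1 tag on each day, log2(TPM + 1), a floor of 1 tag, 1 entry or every entry per symbol, the deposited log2 ratio and, added after the data were seen, the symbol column only. Tools were Python 3.11.15, numpy 2.4.6, pandas 2.3.3, scipy 1.17.1 and matplotlib 3.10.9. In data simulated from the 2290 genes, 200 of them changed, 95.4% of intervals held the true fold. This is a check of the interval calculation only. It does not bear on the spread between libraries, and the listed genes, which all passed a 2-fold filter, differ from that setting. Promoter windows of 300 bases are from RefSeq, 32851 in all; motifs were searched on both strands, and the searched motifs do not contain each other.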

Additional observations from a re-analysis of the deposited data

How the results depend on the processing

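No alternative could turn the direction of a named gene, because each keeps the order of its 2 levels, so the kept directions are not a check. The share of risen genes stayed above that of fallen genes under each alternative. Restricted to the more abundant genes, those reaching the median of the table, the share risen was 68.9%, the median log2 fold 1.26, and 124 genes rose and 29 fell at least 8-fold, in place of 471 and 68; that setting has fewer genes. Among genes with an absolute log2 fold of at least 2 the share was 82.2% and the median 2.88. With at least 1 tag on each day the share was 71.8%, the median 1.38, and 282 genes rose at least 8-fold. On the log2(TPM + 1) scale, which by construction shrinks low genes, the median was 1.38, and 217 genes rose and 26 fell at least 8-fold. Of 239 named genes 62 moved by more than their counting interval on that scale and 0 reversed, since that scale cannot reverse a gene. A floor of 1 tag, 1 entry or every entry per symbol, the deposited log2 ratio and the symbol column only left these values within the limits set. Lists with more rises than falls numbered 36 of 46, and 32 at or above the median abundance. There the primitive streak and FGF lists turned to more falls, and the nuclear receptor and endocytosis lists were tied. With an absolute log2 fold of at least 2 the redox list turned to more rises, the nuclear receptor (2 risen, 2 fallen) and heat shock (3 and 3) lists were tied, and no ribosomal and translation gene was left.

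No paired analysis was possible because the columns hold means over libraries and carry no replicate numbers. Leaving out single replicates could not be computed for the same reason. Tag depth limits low genes: 2 tags at day 1 leave Meis1 between 187-fold and 5578-fold.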
